A study of Homo sapiens with 2 samples.

Results

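Solute carriers are a large group of membrane transporters, and each family moves its own kind of substrate, such as sugars, amino acids, metals, vitamins or organic anions, across the plasma membrane or the membranes of organelles. Most work as exchangers or cotransporters driven by ion or solute gradients, and some need a partner subunit to reach the membrane. In carcinoma cells they help set nutrient supply, and a few, such as the sodium-phosphate cotransporter of serous ovarian tumours, are used as surface antigens.

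The 46 genes described here are the rows of a table of 1806 genes, called different between 2 ovarian carcinoma cell lines, whose symbol begins with SLC and a digit or with SLCO. Of the 56 such rows, 10 were left out: antisense symbols, 3 named genes, and genes on chromosome 18, on chromosome 9 below position 80000000 and on chromosome 12 below position 21000000. No measured value entered the rule, but every row had already passed the authors' threshold. The first line, UWB1.289, is an untreated BRCA1 knockout by its genotype label and comes from a serous ovarian carcinoma. The second, titled UWBBRCA, with the cell line label UWABRCA1 and the genotype label wild type (WT), is its untreated partner with BRCA1, and how BRCA1 was supplied, or whether either line is 1 clone, is not stated in the labels. The labels give 1 sample per line, and the deposited columns hold 1 mean FPKM per line (a read-based level corrected for transcript length and sequencing depth). The decimals of the values are those of a mean of 3, which the labels do not mention, and only the means were analysed. The FPKM values below therefore carry no spread, n or depth, and there is no replicate check of a difference. In bulk RNA, fewer cells with a transcript and less transcript per cell cannot be told apart.

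BRCA1 was listed at 5.63 FPKM without BRCA1 and 22.03 FPKM with it, so its transcript was lower where the label says knockout but was not at 0. Of 10 serous ovarian and Mullerian markers 4 had a row. MUC16, the CA125 antigen, was higher in the deficient line, and CDH6, FOLR1 and WT1 were lower, WT1 being under 1 FPKM in both. No leukocyte marker of 4 had a row. Of 4 fibroblast markers PDGFRA alone had a row, listed at 0 without BRCA1 and at 0.0216 FPKM with it. Of 3 endothelial markers CDH5 alone had a row, at 13.4 against 4.64 FPKM. Only genes called different are listed, so a marker without a row can still be expressed. Whether these differences bear on the carriers was not tested.

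Carriers differed in both directions, with SLCO4A1, SLC6A8, SLC43A3 and SLC7A7 furthest above and SLC2A12, SLC39A8 and SLC34A2 furthest below in the deficient line on the scale of log2(FPKM + 1). The fold listed in the authors' deposited table was above 0, that is higher without BRCA1, for 29 of the 46 genes (63%) and below 0 for 17 (37%), against 53.5% and 46.5% of all listed genes. Past a 2-fold difference on the FPKM + 1 scale, which understates the change of low genes, 13 carriers (28.3%) were higher and 8 (17.4%) lower, against 25.3% and 22.5% of all listed genes, and both together were 45.7% of carriers against 47.8%. The balance of 13 and 8 turned under rescaling, to 7 and 10 with equal totals and to 2 and 11 with centring on the median ratio, and that of all listed genes turned with it, from 457 and 406 to 178 and 520 and to 63 and 550. The shares lie near the background, so the counts set carriers apart from the other called genes in neither direction. The median difference, deficient minus BRCA1-expressing, was 0.66 on the log2 scale of FPKM + 1 for carriers and 0.20 for all listed genes. In size, sign left aside, the medians were 0.96 and 0.98. In the authors' deposited table the absolute log2 fold changes of the carriers ran from 1.12 to 4.80, and their adjusted p-values from 1.93e-11 for SLC2A12 to 0.0498 for SLC19A3.

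The levels spanned from 0.00832 FPKM for SLC6A17 to 271 FPKM for SLC34A2, both in the line with BRCA1. There were 24 carriers at 5 FPKM or more in their higher line, 10 between 1 and 5 FPKM, and 12 under 1 FPKM in both lines. Of the 24 well expressed ones 15 were higher and 9 lower in the deficient line. The share of 62.5% higher is beside 57.7% of the 827 listed genes at that level. The 12 scarce ones were divided 6 and 6. The sums over all 46 genes were close, 552 FPKM without BRCA1 and 547 FPKM with it. That near equality rests on SLC34A2, which held 18.1% of the first sum and 49.5% of the second: without it the sums were 452 and 277 FPKM. Over all 1806 listed genes the sum was also larger without BRCA1, 22567.2 FPKM against 16711.5 FPKM with it.

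**Figure D1:**
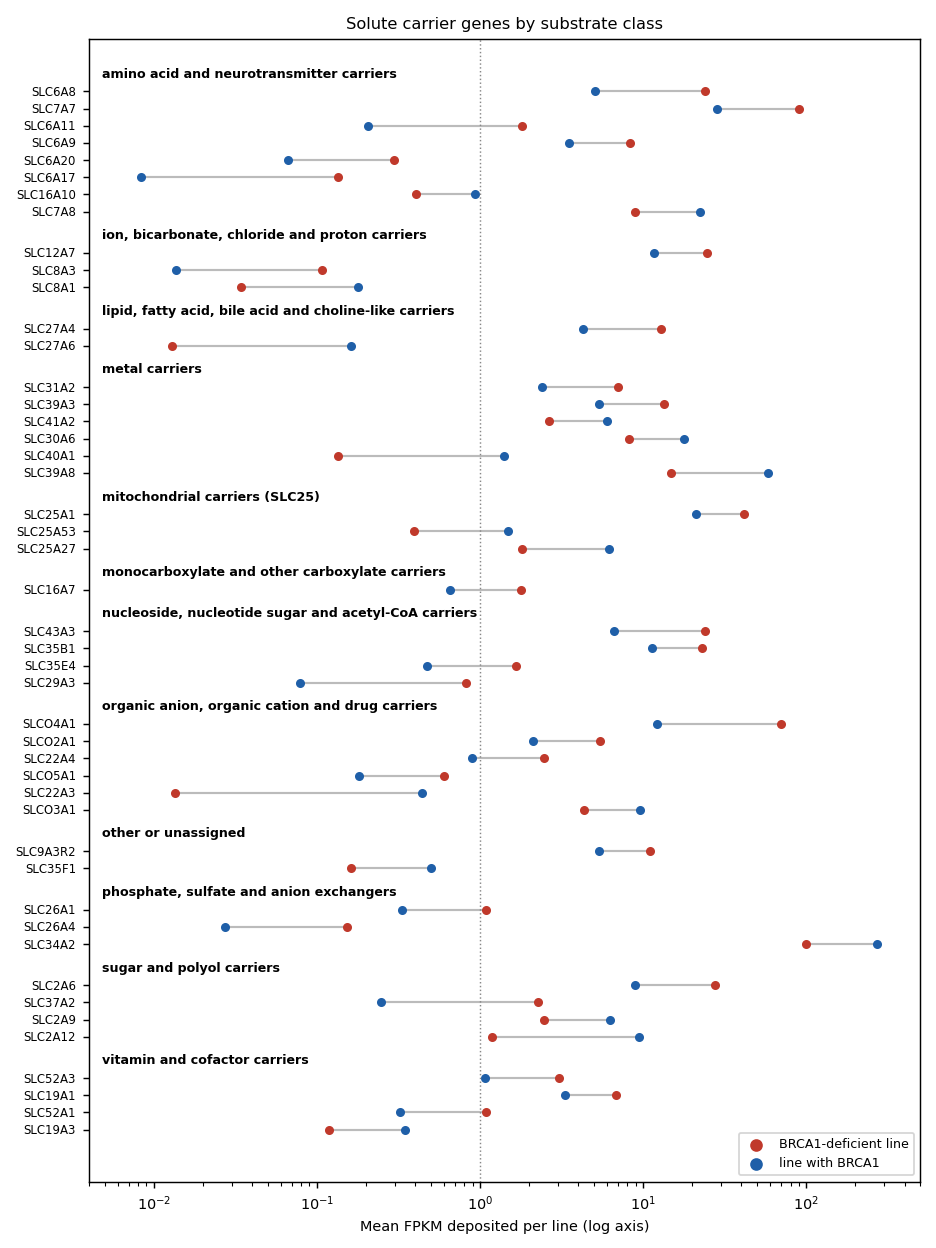
Mean FPKM of each of the 46 solute carrier genes in the BRCA1-deficient line (red) and the line with BRCA1 (blue), on a log axis, grouped by substrate class. Each point is 1 deposited mean with no error, grey lines join the points of a gene, and the dotted line marks 1 FPKM. SLC34A2 is the highest of them in both lines, at 99.6 and 271 FPKM.

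To show the DNA at the start of the genes with the widest differences, RefSeq promoter windows (GRCh38.p14) of 300 bases, 250 before and 50 after the start, are printed for the 2 highest and the 2 lowest carriers. They were taken from the 14 carriers at 5 FPKM or more whose window could be tied to an annotated transcript. SLC7A7 (chr14:22819742-22820041, minus strand) and SLC2A6 (chr9:133479050-133479349, minus strand) were higher in the deficient line. SLC2A12 (chr6:134052575-134052874, minus strand) and SLC34A2 (chr4:25655601-25655900, plus strand) were lower. The starts of SLC7A7 and SLC34A2 lie 10029 and 7840 bases inside the deposited locus, so those loci reach further upstream than the windows. Capitals mark matches, on either strand, to the GC box GGGCGG, the CCAAT box CCAAT, the TATA box TATAAA, the E-box CACGTG and the AP-1 site TGANTCA. The sequences run from 5′ to 3′ along the gene.
SLC7A7: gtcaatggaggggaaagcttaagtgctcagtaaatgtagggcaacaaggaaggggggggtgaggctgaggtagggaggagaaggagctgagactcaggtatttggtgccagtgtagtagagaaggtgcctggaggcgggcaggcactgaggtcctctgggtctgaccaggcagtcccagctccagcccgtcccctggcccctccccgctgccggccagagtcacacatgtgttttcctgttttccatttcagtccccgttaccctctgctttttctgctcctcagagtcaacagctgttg
SLC2A6: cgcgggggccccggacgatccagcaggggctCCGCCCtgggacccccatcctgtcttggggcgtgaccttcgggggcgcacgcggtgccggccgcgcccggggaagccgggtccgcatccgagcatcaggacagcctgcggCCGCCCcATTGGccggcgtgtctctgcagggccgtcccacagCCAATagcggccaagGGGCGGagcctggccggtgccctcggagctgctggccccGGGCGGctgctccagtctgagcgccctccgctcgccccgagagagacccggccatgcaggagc
SLC2A12: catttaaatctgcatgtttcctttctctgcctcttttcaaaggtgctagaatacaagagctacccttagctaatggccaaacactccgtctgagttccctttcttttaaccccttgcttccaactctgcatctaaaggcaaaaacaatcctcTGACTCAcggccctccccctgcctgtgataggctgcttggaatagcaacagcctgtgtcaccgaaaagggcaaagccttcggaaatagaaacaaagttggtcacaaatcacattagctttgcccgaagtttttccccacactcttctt
SLC34A2: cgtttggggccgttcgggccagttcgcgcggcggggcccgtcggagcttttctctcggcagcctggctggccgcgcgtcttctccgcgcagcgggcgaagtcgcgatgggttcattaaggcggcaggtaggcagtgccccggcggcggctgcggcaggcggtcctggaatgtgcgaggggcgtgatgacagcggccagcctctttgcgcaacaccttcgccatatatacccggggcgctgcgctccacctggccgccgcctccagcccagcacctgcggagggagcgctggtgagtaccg

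The 4 windows differ in their letters without following the direction of the transcript. SLC2A6 holds 33 CpG pairs and a GC content of 76%, with matches to the GC box and the CCAAT box. SLC2A12, of the same family and lower in the deficient line, holds 5 CpG pairs, 45.7% GC and a match to the AP-1 site alone. SLC7A7 has 5 CpG pairs and 57.7% GC, and SLC34A2 38 pairs and 70.7% GC, both with no match to the 5 motifs. Of the 46 carriers 36 had a RefSeq window. The median GC content of the windows was 68.7% for the 21 higher carriers and 57.0% for the 15 lower ones, against 66.7% and 63.7% for the windows of all listed higher and lower genes. The GC box was in 16 of 21 and 9 of 15 windows (76.2% and 60%), against 68.4% and 62.8% of those of all listed higher and lower genes and 44.95% of all 35116 RefSeq windows. The CCAAT box was in 7 and 4 windows (34.6% of all), the E-box in 2 and 1 (7.26% of all), the AP-1 site in 3 and 2 (7.71% of all), and the TATA box in 2 and 0 (11.5% of all). Each carrier or listed gene gave 1 window, while the 35116 windows were counted without reduction to 1 per gene. Matches of different motifs can overlap and were counted separately. A match to these letters is a description of the window and not a binding site.

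Of the 69 annotated amino acid and neurotransmitter carriers 8 had a row, beside 9.01% of all protein-coding genes. Of the 8, 6 were higher without BRCA1 and 2 lower, beside 63% higher among all 46 carriers and 53.5% among all listed genes. SLC7A7 (ENSG00000155465, GRCh38 chromosome 14, 22773222 to 22829820, minus strand) encodes y+LAT1, a light chain that works with the heavy chain SLC3A2 to exchange cationic for neutral amino acids. It had 89.8 FPKM without BRCA1 and 28.3 FPKM with it, a 3.17-fold difference in FPKM. SLC7A8 (ENSG00000092068, 23125295 to 23183674 on the same chromosome and strand) encodes LAT2, a light chain for neutral amino acids with the same partner, and lies 295474 bases away. It went the other way, at 8.95 against 22.3 FPKM. Log2 fold changes were 1.72 (adjusted p 0.00329) for SLC7A7 and -1.35 (0.00664) for SLC7A8, as listed in the authors' deposited table. These light chains of a shared heavy chain were therefore called in opposite directions, and SLC3A2 itself is not analysed here.

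Of the 17 annotated genes of the SLC6 family, the sodium- and chloride-dependent transporters of neurotransmitters, amino acids and creatine, 5 had a row, each higher in the deficient line. This is set beside 53.5% higher among all listed genes and 9.01% of all protein-coding genes with a row, with no test. The other SLC6 genes are not analysed here. SLC6A8, the creatine transporter (ENSG00000130821, chromosome X, 153687926 to 153696588, plus strand), had 23.8 against 5.06 FPKM, 4.71-fold, with a log2 fold of 2.36 (adjusted p 4.33e-08) in the authors' deposited table. It has near-identical copies elsewhere in the genome, so its value depends on how reads were assigned. SLC6A9, the glycine transporter GlyT1, had 8.26 against 3.49 FPKM, with 1.25 (adjusted p 0.0392) in the authors' deposited table. SLC6A11, the GABA transporter GAT-3, had 1.80 against 0.207 FPKM, the third carrier of the family past 2-fold on the FPKM + 1 scale. SLC6A20, which carries proline and other imino acids, and SLC6A17, a vesicular carrier of neutral amino acids, stayed under 1 FPKM in both lines, at 0.298 against 0.0665 and 0.135 against 0.00832. SLC16A10, the aromatic amino acid transporter TAT1, was also under 1 FPKM and lower, at 0.405 against 0.933. In FPKM the class summed to 133 without BRCA1, mostly from SLC7A7, and to 60.3 with it, mostly from SLC7A7 and SLC7A8 together.

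Sugar carriers were split by gene, with a row for 4 of the 29 annotated ones, beside 9.01% of all protein-coding genes. Each of the 4 was past 2-fold on the FPKM + 1 scale, beside 47.8% of all listed genes. After centring on the median ratio of listed genes, SLC2A6 (0.57) and SLC37A2 (0.77) were under 2-fold on the log2 scale. SLC2A12 (-2.71) and SLC2A9 (-1.71) stayed past it. SLC2A6 (ENSG00000160326, chromosome 9, 133471094 to 133479127, minus strand), the glucose transporter GLUT6 of lysosomal membranes, had 27.5 FPKM in the deficient line against 8.87. SLC37A2, an exchanger of glucose-6-phosphate for phosphate in the endoplasmic reticulum, had 2.27 against 0.247 FPKM. SLC2A12 (ENSG00000146411, chromosome 6, 133988697 to 134052636, minus strand), the glucose transporter GLUT12, was 7.97-fold lower, at 1.18 FPKM without BRCA1 and 9.40 FPKM with it. SLC2A9, known above all as a urate transporter, had 2.47 against 6.27 FPKM. Listed in the authors' deposited table were log2 fold changes of 1.81 for SLC2A6 (adjusted p 0.00123), -2.96 for SLC2A12 (1.93e-11) and -1.43 for SLC2A9 (0.00649). The exons of SLC2A12 share 38.9% of their bases with TBPL1 on the opposite strand, so reads of the pair can be told apart only if counting used strand, which the labels do not state.

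SLCO4A1, an organic anion carrier, had the widest upward difference of the 46 on the scale of log2(FPKM + 1), while scarcer genes such as SLC6A17 had a wider FPKM ratio. SLCO4A1 (ENSG00000101187, chromosome 20, 62642503 to 62685785, plus strand), which takes up thyroid hormone and other organic anions, had 70.1 FPKM without BRCA1 and 12.2 FPKM with it, 5.75-fold. The authors' deposited table lists it at 2.73 on the log2 scale (adjusted p 4.15e-09). SLCO2A1, the prostaglandin transporter, followed at 5.45 against 2.11 FPKM, with 1.58 (adjusted p 0.000591) in the authors' deposited table. SLCO3A1, another prostaglandin-carrying member, was lower at 4.36 against 9.50 FPKM, and SLCO5A1, whose substrate is not established, was higher but scarce at 0.605 against 0.182. The organic cation carriers were low and opposed: SLC22A4, the ergothioneine transporter, had 2.48 against 0.894 FPKM, and SLC22A3, the extraneuronal monoamine transporter OCT3, 0.0136 against 0.444. The latter has the widest FPKM ratio of the 46, 32.7-fold, and the fold of -4.80 (adjusted p 1.93e-07) in the authors' deposited table is the widest too, but it rests on values under 1 FPKM.

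Of the 31 annotated metal carriers 6 had a row, beside 9.01% of all protein-coding genes. Among these 6, 4 were lower in the deficient line, beside 46.5% of all listed genes. This is the largest count of any class but no larger a share than the 2 of 3 mitochondrial carriers. SLC39A8 (ENSG00000138821, chromosome 4, 102251041 to 102431258, minus strand) encodes ZIP8, which imports zinc, manganese and iron. It had 14.8 FPKM without BRCA1 and 57.9 FPKM with it, 3.92-fold lower. SLC40A1, ferroportin, the only known cellular iron exporter, had 0.134 against 1.40 FPKM, 10.4-fold lower. SLC30A6, a zinc carrier of the Golgi, had 8.19 against 17.9 FPKM, and SLC41A2, a magnesium carrier, 2.63 against 5.99. The higher genes were SLC39A3, the zinc importer ZIP3, at 13.4 against 5.32 FPKM, and SLC31A2, a copper carrier of endosomes, at 6.99 against 2.41. The exons of SLC31A2 share 63.1% of their bases with FKBP15 on the opposite strand, where the same limit on counting holds. In the authors' deposited table the log2 fold changes were -1.89 for SLC39A8 (adjusted p 1.6e-06), -3.17 for SLC40A1 (8.03e-07), -1.42 for SLC30A6 (0.00606), 1.39 for SLC39A3 (0.0162) and 1.69 for SLC31A2 (0.00264). Zinc carriers thus went both ways, ZIP3 above and ZIP8 and the Golgi carrier below.

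SLC34A2 (ENSG00000157765, chromosome 4, 25648011 to 25678748, plus strand) had the highest FPKM of the 46 listed carriers in both lines. It encodes NaPi2b, the sodium-phosphate cotransporter that serves as an antibody target in ovarian cancer. It had 271 FPKM with BRCA1, where it ranked behind 5 other listed genes, and 99.6 FPKM without. The authors' deposited table lists a log2 fold of -1.35 for SLC34A2 (adjusted p 0.00493). The other anion carriers were scarce and higher in the deficient line: SLC26A1, a sulfate and oxalate exchanger, at 1.09 against 0.332 FPKM, and SLC26A4, pendrin, at 0.154 against 0.0272.

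Of the 34 annotated nucleoside and nucleotide carriers 4 had a row, beside 9.01% of all protein-coding genes. Each of the 4 was higher in the deficient line, beside 53.5% of all listed genes. SLC35F1, of the same SLC35 family but counted under other carriers, was lower. SLC43A3, which takes up purine nucleobases, had 24.1 against 6.59 FPKM, with a log2 fold change of 2.14 (adjusted p 3.71e-07) in the authors' deposited table. Its exons share 29.9% of their bases with AP000781.2 on the same strand, and reads of that stretch could be counted to either gene. SLC35B1, which exchanges ATP for ADP across the endoplasmic reticulum membrane, had 22.99 against 11.3 FPKM. SLC35E4, whose substrate is not established, had 1.67 against 0.473 FPKM (27.7% of its exon bases are shared with DUSP18 on the opposite strand), and SLC29A3, the lysosomal nucleoside transporter ENT3, 0.825 against 0.0785. The substrate of SLC35F1 is not established either, and it had 0.162 against 0.5005 FPKM. With it counted here, 4 of 5 would be higher, so the count depends on how orphan members are assigned.

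Of the 4 vitamin carriers with a row 3 were higher and 1 lower, and of the 2 lipid carriers 1 was higher and 1 lower. Among all listed genes 53.5% were higher. SLC19A1, the reduced folate carrier, which also takes up methotrexate, had 6.82 against 3.32 FPKM, and its deposited locus is 1.57 times as long as the annotated gene. The riboflavin transporters SLC52A3 and SLC52A1 had 3.04 against 1.08 and 1.09 against 0.323 FPKM. SLC19A3, a thiamine transporter, was lower and scarce at 0.119 against 0.349 FPKM. Among fatty acid transport proteins, SLC27A4 (FATP4) had 12.9 against 4.25 FPKM, with a log2 fold change of 1.74 (adjusted p 0.00229) in the authors' deposited table, while SLC27A6 (FATP6) was at 0.0129 against 0.162.

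Of the mitochondrial SLC25 family 3 of 46 annotated genes had a row, beside 9.01% of all protein-coding genes. The citrate carrier SLC25A1 was above and SLC25A27 and SLC25A53 were below. However, the sign of SLC25A1 turned to -0.02 when the lines were centred on the median ratio of listed genes. SLC25A1, which exports citrate for lipid synthesis in the cytosol, had 41.6 against 21.0 FPKM. SLC25A27, the brain-enriched uncoupling protein UCP4, had 1.80 against 6.20 FPKM, with -1.67 (adjusted p 0.0152) in the authors' deposited table. SLC25A53, whose substrate is not established, had 0.393 against 1.48 FPKM. It is the only carrier whose log2 FPKM ratio and deposited fold, -1.92 and -1.32 in the authors' deposited table, were more than 0.5 apart.

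Ion carriers and the monocarboxylate carrier SLC16A7 complete the set. SLC12A7, the potassium-chloride cotransporter KCC4, had 24.6 against 11.6 FPKM, with 1.17 (adjusted p 0.0314) in the authors' deposited table. The sodium-calcium exchangers were near silent and opposed, SLC8A3 at 0.108 against 0.0136 FPKM and SLC8A1 at 0.0342 against 0.179. SLC16A7, the pyruvate and lactate transporter MCT2, had 1.79 against 0.651 FPKM. SLC9A3R2 is a member by its symbol only: it encodes NHERF2, a scaffold that binds sodium-proton exchangers and moves no solute, and had 10.9 against 5.33 FPKM.

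**Figure D2:**
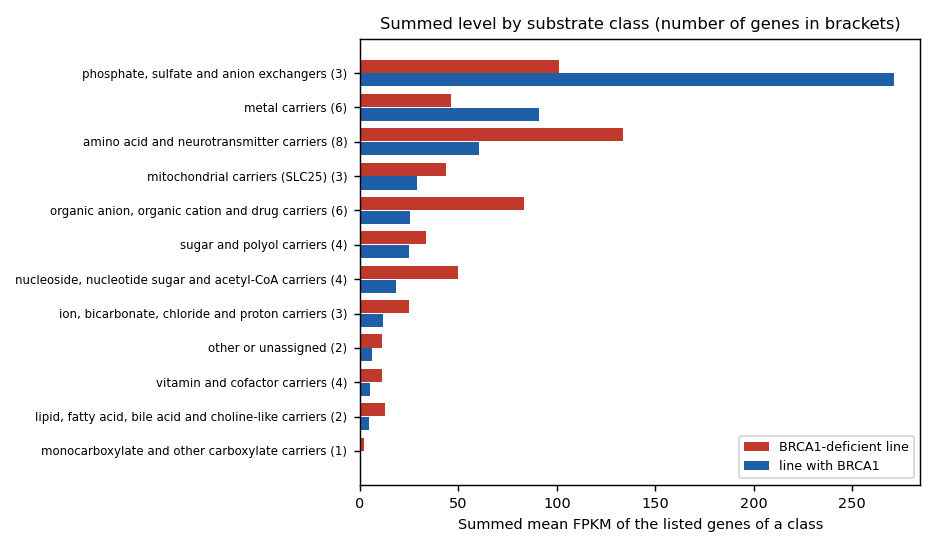
Summed mean FPKM of the listed solute carrier genes of each substrate class in the BRCA1-deficient line (red) and the line with BRCA1 (blue), with bars from 0 and no error. The phosphate, sulfate and anion class (100.9 against 271 FPKM) and the metal class (46.1 against 90.9) are lower in the deficient line. The other 10 classes are higher, as is the sum over all listed genes (22567.2 against 16711.5 FPKM). A sum can rest on 1 gene. SLC34A2 gives 99.6 and 271 FPKM of the phosphate, sulfate and anion sums. SLC25A1 gives 41.6 and 21.0 FPKM of the mitochondrial sums of 43.8 and 28.7, while 2 of the 3 genes there are lower. The class sums were not rescaled.

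Members of the same family could take opposite directions. The 46 genes fall into 24 families, of which 14 had at least 2 genes with a row. In 11 of these 14 at least 1 gene was higher and at least 1 lower without BRCA1, and in the remaining 3, SLC6, SLC26 and SLC52, all were higher. Of the 46 carriers 63% were higher and 37% lower, so families of mixed direction can arise whatever the family. Their number was not set against an expected one. Pairs past 2-fold on the FPKM + 1 scale in both directions were found in the SLC2, SLC7 and SLC39 families. For the low pairs, in the SLC8 family for example, the differences are under 0.2 on this scale.

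**Figure D3:**
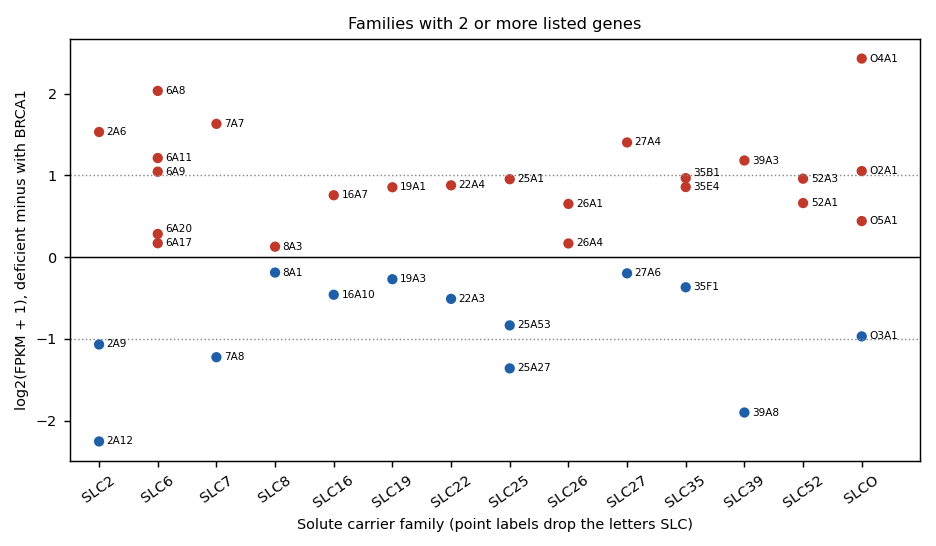
Difference in log2(FPKM + 1), BRCA1-deficient line minus line with BRCA1, for each gene of the 14 solute carrier families with 2 or more listed genes, red above 0 and blue below, with dotted lines at 2-fold. SLC2A6 and SLC2A12 (1.53 and -2.26), SLC7A7 and SLC7A8 (1.63 and -1.22) and SLC39A3 and SLC39A8 (1.18 and -1.90) lie on opposite sides, and SLC25A1 alone changes side when the lines are centred on the median ratio of listed genes. After that centring SLC2A6, SLC7A7 and SLC39A3 are under 2-fold.

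Direction moved with the GC content of the transcript, as in the rest of the table. The longest annotated transcript had a median GC content of 58.0% for the 29 higher carriers and 44.3% for the 17 lower ones, beside 58.0% and 44.1% for all listed higher and lower genes. Of the 24 carriers at or above the median GC of listed genes, 51.5%, 21 were higher (87.5%, against 81.5% of all listed genes there). Of the 22 below it 8 were higher (36.4%, against 25.4%). All 12 carriers in the highest quartile of GC content were higher, where 89.8% of listed genes were. SLC16A7, with the lowest GC content of the 46, 33.3%, was higher, and SLC7A8, the lower carrier with the highest, had 52.9%. The part of GC content in the direction of these carriers was not tested.

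**Figure D4:**
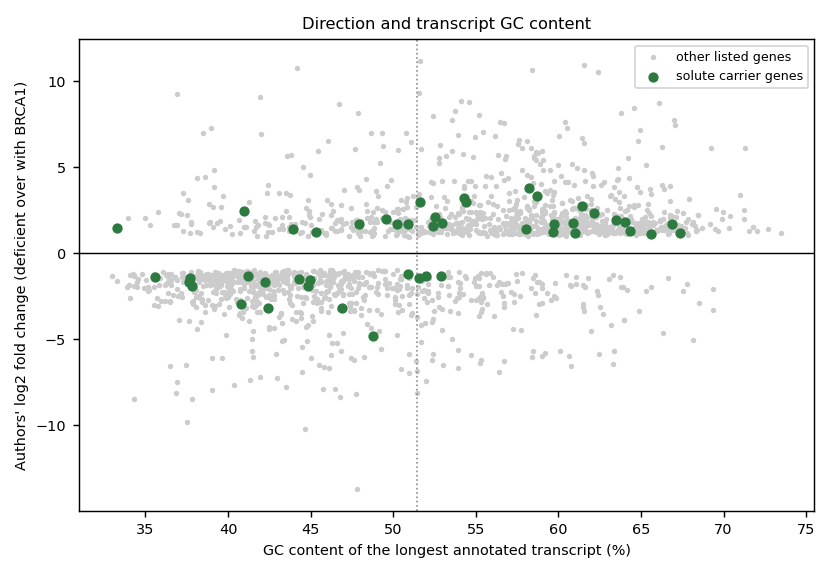
Log2 fold change in the authors' deposited table (deficient over BRCA1-expressing) against the GC content of the longest annotated transcript, for carriers (green) and other listed genes (grey), with the dotted line at the listed-gene median of 51.5%. To the right of the line 21 of 24 carriers are above 0, and to the left 8 of 22.

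Carriers with a row near them in the genome shared its direction about as often as listed genes do in general. For 15 carriers the nearest listed gene lay within 100000 bases, and 14 of these pairs had the same direction (93.3%), against 91.1% of the 734 listed genes with such a neighbour. Among them SLC7A7 lies 6740 bases from MMP14, a membrane metalloprotease gene, which had 61.2 against 25.5 FPKM.

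Of the 366 annotated protein-coding solute carrier genes under the same rule, 12.6% had a row, beside 9.01% of all 19951 protein-coding genes. The other 320 are not analysed here, among them all annotated genes of the SLC38 amino acid carriers, the SLC4 bicarbonate carriers and the SLC5 sodium-glucose family. Genes that work with carriers, counted together with carriers under other symbols, had a row about as often as genes in general. Of 60 chaperones, regulatory kinases, scaffolds, carbonic anhydrases and carriers under other symbols 5 had a row, 2 higher and 3 lower. Carriers under other symbols make up 32 of the 60 and 2 of the 5. WNK1, a kinase that regulates the cation-chloride cotransporters, had 12.9 FPKM in the deficient line against 31.7, and its relative WNK4 had 1.41 against 0.379. TMEM163, a zinc exporter, had 1.01 against 0.253 FPKM. FLVCR2 and the carbonic anhydrase CA12 were under 1 FPKM in both lines, at 0.200 against 0.591 and 0.206 against 0.766.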

How the data were processed

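RNA was measured in 2 samples, 1 per line, from strand-specific libraries of total RNA depleted of ribosomal RNA, per the labels' protocols. The authors deposited a mean FPKM per line, and each value multiplied by 3 has whole last decimals (tolerance 0.02), as a mean of 3 would. The authors also deposited log2 fold changes, p-values and adjusted p-values, per the file headers, and their test is not stated in the labels. HISAT2, StringTie 1.3.3b and the mouse build mm9 are named in the submitters' processing notes, but all 46 gene IDs are human and overlap their gene in GENCODE release 29 (GRCh38), so positions are read as GRCh38. Of the 46, 20 share exon bases with another annotated gene, 16 of them on the opposite strand. The p-values were adjusted over 38868 features, and the last listed gene has rank 2716, so the table holds part of the genes that passed 0.05.

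Differences are log2(FPKM + 1), deficient minus BRCA1-expressing, with a size rule of 2-fold and no test, since each line has 1 column of means. Carriers, substrate classes by family with some genes assigned singly, and partner lists were chosen with earlier results of these data known, and 1 partner list is not reported here. All carriers are named with both values. Folds and adjusted p are given for those past 2-fold at 5 FPKM or more, and for some others chosen after their values were seen. Transcript GC content comes from the longest GENCODE transcript, and promoter windows from RefSeq (GRCh38.p14), matched by symbol. The difference and counting steps were tested on simulated data. Python 3.11.15, numpy 2.4.6, pandas 2.3.3 and matplotlib 3.10.9 were used. Also tried were equal totals, centring, pseudocounts of 0.1 and 0.01, FPKM minima of 1, a 4-fold rule, an adjusted p of at most 0.01 and the authors' fold.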

Additional observations from a re-analysis of the deposited data

How the results depend on the processing

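The 2-fold counts of carriers, 13 higher and 8 lower, and the median difference of 0.66 depend on the scale. With a pseudocount of 0.1 the counts were 26 and 17 and the median 1.05, with 0.01 they were 28 and 17 and 1.28, and with log2 fold changes as listed in the authors' deposited table they were 29 and 17 and 1.333, since low genes are then not shrunk. A 4-fold rule left 2 higher and 1 lower. Bringing both lines to the same total (the deficient line moved by -0.43 on the log2 scale) gave 7 higher and 10 lower with a median of 0.45. All listed genes then gave 178 higher and 520 lower. Centring on the median ratio, which moved the deficient line by -1.01 and the median of all listed genes by -0.21, gave 2 higher and 11 lower with a median of 0.067. All listed genes then gave 63 higher and 550 lower. Both shifts are computed from called genes alone. Filters kept the counts within 1.5 times: the median was 0.90 over the 34 carriers at 1 FPKM or more in either line, 0.96 over the 25 at 1 FPKM or more in both, and 0.71 over the 28 with an adjusted p of at most 0.01 in the authors' deposited table. By sign, no carrier turned under equal totals and SLC25A1 alone under centring. No paired analysis was possible because each line has 1 column of means. For the same reason no replicate could be left out, and the depth is unknown, so values under 1 FPKM carry no stated precision.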
